A study of Mus musculus with 12 samples.

Results

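The genes described here are 10 genes of Wnt signalling and of the liver's pericentral programme: Wnt2, Wnt9b, Rspo3, Axin2, Lgr5, Glul, Oat, Rhbg, Cyp2e1 and Cyp1a2. They were taken by name from the 57180 genes of the deposited tables, and all 10 were among the 19350 genes with enough reads to be tested. Whole livers of 12 mice were sequenced, 3 females and 3 males labelled KO and 3 females and 3 males labelled Het. Every mouse lacked Csa, the Cockayne syndrome gene also called Ercc8, and by the study's methods every litter received AAV9-CSA, a virus carrying CSA, into the brain ventricles soon after birth. The Het mice were Csa-/- Xpa+/- littermates of the KO mice, killed at matched ages without signs of disease. The KO mice were at a humane endpoint, so genotype and end-stage condition cannot be told apart in these livers. The series' own text and the methods for these libraries both write KO as Csa-/- Xpa+/+, but elsewhere the study describes the endpoint animals as Csa-/- Xpa-/- (CX mice), and the groups are called KO and Het here. The ages of single mice are not given in the sources used here.

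Xpa was read first, because the descriptions of the KO mice disagree on it. Its level lay between 0.992 and 1.83 CPM (counts per 1000000 counts of a library's effective size) in the 6 KO livers and between 3.10 and 6.34 CPM in the 6 Het livers, with no overlap. Xpa was thus 3.55-fold lower in KO than in Xpa+/- Het livers, the direction of the Csa-/- Xpa-/- description and not of Xpa+/+. Ercc8 still had reads in all livers, 5.10 to 8.68 CPM in Het and 14.8 to 33.99 CPM in KO. It was 3.065-fold higher in KO livers, also with no overlap. Libraries held 30044812 to 43634073 counts. Hepatocyte markers, among them Alb and Apoa1, summed to at least 24440 TPM (a level per transcript length) in every liver.

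As background, the liver lobule is organised around the central vein. Endothelial cells of the central vein make the Wnt ligands Wnt2 and Wnt9b and, with stellate cells, the R-spondin Rspo3, which keeps Wnt receptors at the cell surface. In nearby hepatocytes the signal stabilises beta-catenin, which works with TCF/LEF factors to switch on the negative regulator Axin2, the R-spondin receptor Lgr5 and a set of pericentral enzymes and transporters. That set takes up ammonium and makes glutamine, and it holds much of the liver's cytochrome P450 activity, whereas the urea cycle lies towards the portal side.

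Of the 10 genes, 4 were lower and 1 was higher in KO livers over both sexes (edgeR quasi-likelihood F test, Benjamini-Hochberg adjusted p under 0.05 over all tested genes). Glul, Oat, Cyp2e1 and Cyp1a2, which are hepatocyte enzymes, fell, and the ammonium transporter Rhbg rose. None of the 3 ligands, nor Axin2 or Lgr5, passed the test in that comparison, in which 6 of the 10 genes had an unadjusted p under 0.05, beside 36.1% of all genes. Among all tested genes 22.4% were called, 12.2% as higher and 10.2% as lower. The median log2 fold change over the 10 genes was -0.48, beside 0.02 over all tested genes. KO and Het livers did not overlap at all for Rhbg and Cyp1a2, and 9.35% of all tested genes were free of overlap (4.72% with KO higher and 4.64% with KO lower).

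**Figure D1:**
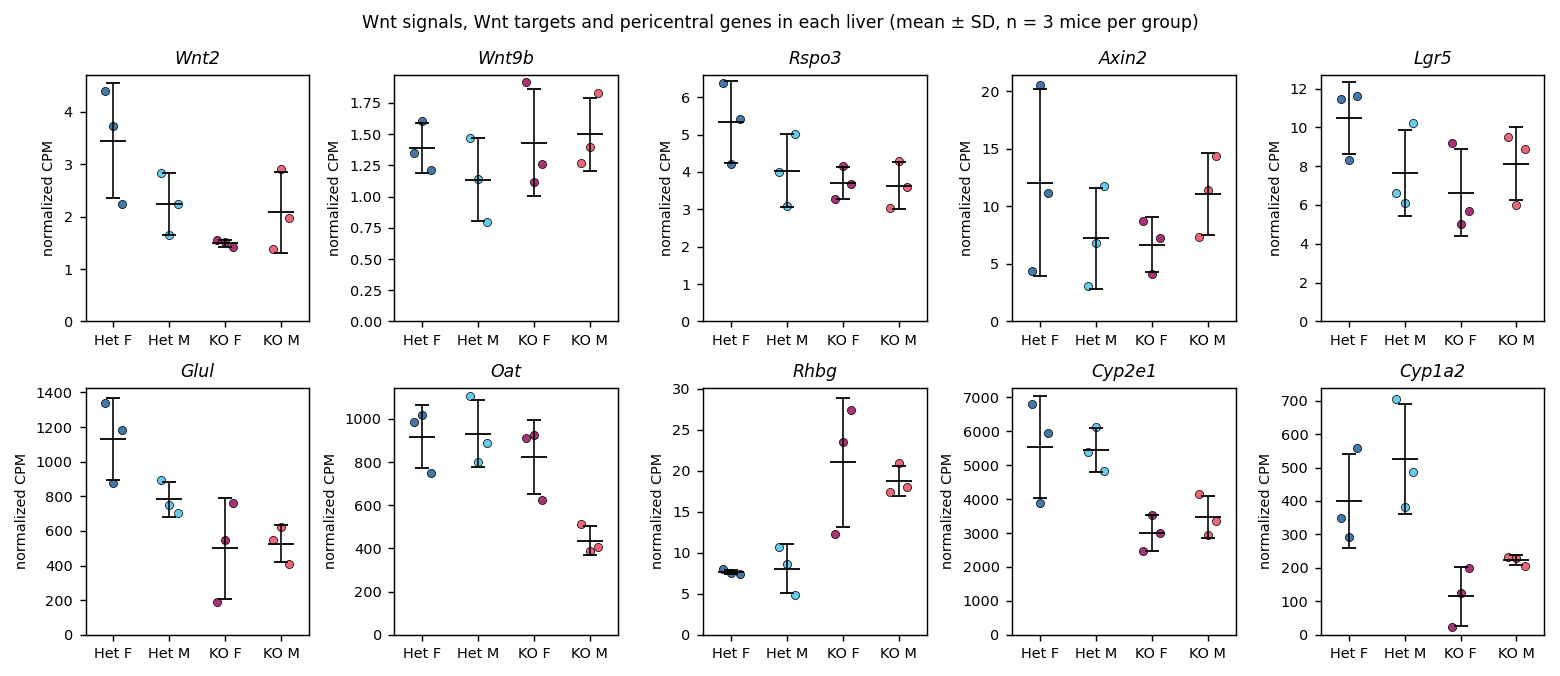
Normalized CPM (vertical axes, from 0) of the 10 genes in each liver, by group; points are single mice and bars are the mean ± SD of 3 mice. All 6 KO livers lie above all 6 Het livers for Rhbg and below them for Cyp1a2, while for Axin2 the groups overlap throughout.

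The levels of the 10 genes span several orders of magnitude. By mean TPM, which allows genes to be compared, their order was the same in Het and in KO livers: Cyp2e1, Oat, Glul, Cyp1a2, Rhbg, Axin2, Lgr5, Rspo3, Wnt2 and Wnt9b. Cyp2e1 averaged 2397 ± 494 TPM in Het and 1414 ± 232 TPM in KO livers (SD, n = 6 each), and Wnt9b averaged 0.209 ± 0.054 and 0.245 ± 0.070 TPM. Cyp2e1 held rank 24 among the tested genes by level in Het and rank 48 in KO livers, and Cyp1a2 moved from rank 304 to rank 742. Rhbg moved the other way, from rank 8086 to rank 4775. Within single livers, 3 of the 9 neighbouring pairs in this order kept it in all 6 Het livers, namely Cyp2e1 above Oat, Cyp1a2 above Rhbg, and Wnt2 above Wnt9b, and their ranges over Het livers did not overlap. The other pairs kept it in 3 to 5 of the 6 Het livers. In KO livers 7 of the 9 pairs kept it in all 6 livers, the exceptions being Oat above Glul and Lgr5 above Rspo3, each in 5 of 6. Ranges over KO livers did not overlap for Cyp2e1 and Oat, Rhbg and Axin2, and Wnt2 and Wnt9b.

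The ligands were scarce transcripts. Wnt2 (ENSMUSG00000010797.7, GRCm39 chr6:17985468-18031892, minus strand) encodes a Wnt made by liver endothelium. Mice are named by group, sex (F or M) and number. In Het_F_111, Het_F_115 and Het_F_126 it was at 4.39, 3.72 and 2.25 CPM, and in Het_M_119, Het_M_125 and Het_M_137 at 2.84, 1.66 and 2.24 CPM. KO_F_108, KO_F_112 and KO_F_123 were at 1.55, 1.52 and 1.42 CPM, and KO_M_118, KO_M_122 and KO_M_136 at 1.38, 2.91 and 1.97 CPM. Below, values of single mice follow this same order of mouse numbers. All 3 KO females and KO_M_118 thus lay below every Het liver, while KO_M_122 and KO_M_136 lay within the Het range. The log2 fold change over both sexes was -0.64 ± 0.23 (SE), with an adjusted p of 0.06 in edgeR, so Wnt2 was not called. DESeq2 did call it (adjusted p 0.0334), and so did edgeR without Het_F_126 (-0.77, adjusted p 0.0289) or without KO_M_122 (-0.79, adjusted p 0.0274). Between 49 and 156 counts per liver stood behind these values.

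Among females alone, Wnt2 was lower in KO by 2.26-fold (log2 fold change -1.18 ± 0.32, adjusted p 0.0379 by edgeR), with Het and KO free of overlap. Among males the difference was -0.11 ± 0.32 (adjusted p 0.877). The female call was lost when Het_F_111 or Het_F_115, Het_M_137, or any of the 3 KO females was left out (adjusted p 0.0508 to 0.108), and in a fit to the 6 females alone (0.075).

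Wnt9b (ENSMUSG00000018486.3, chr11:103618189-103640655, minus strand) is the other central vein ligand. It was at 1.35, 1.61 and 1.21 CPM in Het females and 1.47, 1.14 and 0.799 CPM in Het males. KO females had 1.92, 1.11 and 1.26 CPM and KO males 1.27, 1.40 and 1.83 CPM. KO_F_108 and KO_M_136 were above every Het liver and the other 4 KO livers lay within the Het range. The log2 fold change was 0.21 ± 0.20 (adjusted p 0.486), on 25 to 63 counts per liver.

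Rspo3 (ENSMUSG00000019880.11, chr10:29327285-29411876, minus strand), the R-spondin of the central vein, was at 6.39, 4.21 and 5.42 CPM in Het females and 4.003, 3.09 and 5.02 CPM in Het males. In KO females it was at 3.28, 4.15 and 3.67 CPM and in KO males at 3.03, 4.28 and 3.60 CPM. The 3 KO females lay just below the 3 Het females, and the males overlapped. Neither the change over both sexes (-0.34 ± 0.16, adjusted p 0.157) nor that in females (-0.52 ± 0.23, adjusted p 0.153) passed the test.

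Markers of liver endothelium in general and of stellate cells were read next, and those of central vein endothelium follow below. Of 16 liver endothelial markers, 10 were lower in KO livers (median log2 fold change -0.59), including the Fc receptor gene Fcgr2b (-1.23 ± 0.20, adjusted p 0.00192) and the VEGF receptor gene Kdr (-0.99 ± 0.18, adjusted p 0.0033). Their summed level was 86.6 to 170 TPM in Het and 66.5 to 118.6 TPM in KO livers, and in females it was 139 to 170 against 85.1 to 89.0 TPM. In males it overlapped, at 86.6 to 111.3 TPM in Het and 66.5 to 118.6 TPM in KO. In females 6 of the 16 markers were called as lower, and in males edgeR called 0, with 4 at an unadjusted p under 0.05. Stellate cell and fibroblast markers had 5 of 12 lower (median -0.48), with the extracellular matrix gene Reln at -1.75 ± 0.19 (adjusted p 0.000188) and the retinoid-storing enzyme gene Lrat at -1.89 ± 0.21 (adjusted p 0.000238), and summed to 83.8 to 182 TPM in Het against 56.2 to 107.6 TPM in KO livers. KO_M_122, the KO liver with the most Wnt2, also had the highest endothelial and stellate sums of the KO livers (118.6 and 107.6 TPM). KO_M_136, the KO liver with the next most Wnt2 (1.97 CPM), had the lowest of both sums among KO livers (66.5 and 56.2 TPM). No marker of either list was at 0 in any liver. In bulk liver tissue, fewer cells of a type and less RNA per cell cannot be told apart. The part of these markers in the ligand values was not tested.

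Central vein endothelial markers went in both directions. Cdh13, an adhesion gene, fell (-1.18 ± 0.19, adjusted p 0.00185) from 1.69 to 3.52 CPM in Het to 0.860 to 1.52 CPM in KO livers. The receptor tyrosine kinase gene Kit fell as well (-0.52 ± 0.16, adjusted p 0.0365), although leaving out any 1 of 7 mice ended that call. The other 3 markers were not called, and the median of the 5 was 0.41. Vwf, the gene for von Willebrand factor, was at 214 CPM in KO_F_112 and at 49.2 CPM in KO_F_108 against 8.85 to 12.95 CPM in Het livers. In KO_F_112 it made up 42.4 of the 46.7 TPM to which the 5 markers summed, beside sums of at most 8.62 TPM in Het livers.

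**Figure D2:**
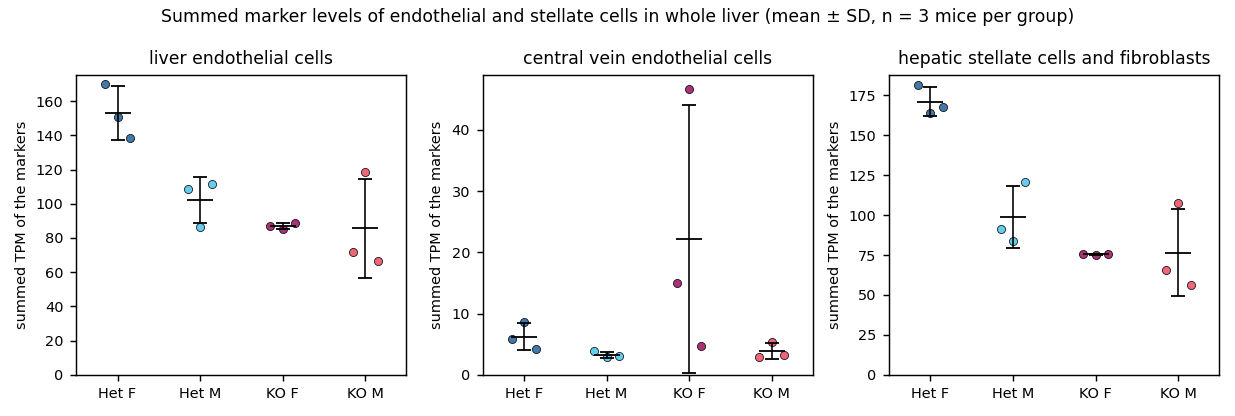
Summed TPM (vertical axes, from 0) of the markers of liver endothelium, central vein endothelium, and stellate cells and fibroblasts in each liver; points are single mice and bars are the mean ± SD of 3 mice. Het females have the highest endothelial and stellate sums, the 3 KO females lie between 85.1 and 89.0 TPM for endothelium, and 1 KO female stands at 46.7 TPM for the central vein markers.

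The hepatocyte side of the signal was read from Axin2 and Lgr5. Axin2 (ENSMUSG00000000142.16, chr11:108811169-108841609, plus strand), a feedback inhibitor and the usual readout of beta-catenin activity, was at 4.42, 20.6 and 11.2 CPM in Het females and 3.07, 6.83 and 11.8 CPM in Het males. KO females were at 8.74, 4.09 and 7.24 CPM and KO males at 7.33, 11.4 and 14.4 CPM. Every KO liver lay within the Het range, which spread from 3.07 to 20.6 CPM. The log2 fold change was -0.12 ± 0.40 (adjusted p 0.861), and its direction turned in limma on TPM (0.00 with a pseudocount of 1 and 0.04 with 0.1) and between -0.33 and 0.18 as single mice were left out.

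Lgr5 (ENSMUSG00000020140.16, chr10:115286216-115423685, minus strand), the receptor for Rspo3 and itself a Wnt target, was at 11.4, 8.34 and 11.6 CPM in Het females and 6.60, 6.11 and 10.2 CPM in Het males. KO females had 9.20, 5.01 and 5.71 CPM and KO males 9.49, 6.002 and 8.91 CPM. Het and KO overlapped in both sexes, although 3 of 6 KO livers were below all Het livers. No change passed the test over both sexes (-0.28 ± 0.19, adjusted p 0.323), in females (-0.65 ± 0.28, adjusted p 0.14) or in males (0.09 ± 0.28, adjusted p 0.881).

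Other feedback and direct target genes of beta-catenin were compiled as a list of 8, all tested. The feedback genes Nkd2 (-0.88 ± 0.20, adjusted p 0.0104), Rnf43 (-1.09 ± 0.33, adjusted p 0.0369) and Nkd1 (-0.59 ± 0.19, adjusted p 0.0413) fell, as did the transcription factor gene Tbx3 (-1.54 ± 0.45, adjusted p 0.0336), and the proliferation gene Myc rose (1.82 ± 0.55, adjusted p 0.0403). Nkd1 and Myc are named in addition to the 3 genes of smallest p, after their values were seen. The median over the 8 was -0.39. Tbx3 ranged from 7.31 to 47.3 CPM in Het and from 4.99 to 17.8 CPM in KO livers, so the groups overlapped, whereas Nkd2 was free of overlap at 0.352 to 0.563 against 0.181 to 0.319 CPM. Between 1 and 3 of the 8 were called as lower when 1 mouse was left out, and 0 by limma on TPM. The call of Nkd2 held without any single mouse in edgeR but was lost in 4 of 25 alternatives, and its levels were low (0.181 to 0.563 CPM).

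All 5 genes called over both sexes were enzymes or a transporter of the pericentral zone. Glul (ENSMUSG00000026473.17, chr1:153775690-153785469, plus strand) encodes glutamine synthetase, which binds ammonium to glutamate in the last hepatocytes before the central vein. It was at 1337, 875 and 1185 CPM in Het females, 894, 752 and 702 CPM in Het males, 187.5, 549 and 761 CPM in KO females and 550, 622 and 408 CPM in KO males. KO_F_123 reached the lower end of the Het range and the other 5 KO livers lay below it. Glul was lower in KO livers by 1.84-fold (log2 fold change -0.88 ± 0.28, adjusted p 0.0404). Within a sex the groups did not overlap, but neither females (-1.18 ± 0.39, adjusted p 0.0731) nor males (-0.57 ± 0.39, adjusted p 0.407) passed the test. Females were called by DESeq2 (adjusted p 0.0201), by limma (0.0302 and 0.0307) and by edgeR without KO_F_123 (0.0218). KO_F_108 was the lowest, and without it the change was smaller and still called (-0.69, adjusted p 0.0129).

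The call of Glul over both sexes was near the threshold. It was lost with no filter on low counts (adjusted p 0.103) and when Het_F_111 or Het_F_126, any Het male, KO_F_112 or any KO male was left out, with adjusted p of 0.0519 to 0.0838 and log2 fold changes of -0.81 to -0.94.

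Oat (ENSMUSG00000030934.10, chr7:132159153-132191517, minus strand) encodes ornithine aminotransferase, the mitochondrial enzyme that turns ornithine into a precursor of glutamate and proline. It was at 986.5, 1017 and 749 CPM in Het females and 1107, 803 and 887 CPM in Het males. KO females were at 913, 927.5 and 624.7 CPM and KO males at 511, 388 and 407 CPM. The 3 KO males were the lowest of all livers, and 2 of the 3 KO females lay inside the Het range. Oat was lower over both sexes (-0.63 ± 0.14, adjusted p 0.0101) and in males, where the fold was 2.14 (-1.10 ± 0.21, adjusted p 0.00975). In females the change was -0.16 ± 0.20 (adjusted p 0.651). The call over both sexes and that in males held under every alternative run and without any single mouse.

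Rhbg (ENSMUSG00000104445.2, chr3:88150181-88162043, minus strand) encodes a membrane channel for ammonium of pericentral hepatocytes. It was at 7.97, 7.52 and 7.47 CPM in Het females and 10.7, 8.62 and 4.89 CPM in Het males. In KO females it was at 12.3, 23.5 and 27.4 CPM and in KO males at 17.4, 20.9 and 18.0 CPM. Each of the 6 KO livers exceeded each of the 6 Het livers. The rise was 2.52-fold over both sexes (log2 fold change 1.33 ± 0.21, adjusted p 0.00145), 1.46 ± 0.30 on the log2 scale in females (adjusted p 0.014) and 1.21 ± 0.30 in males (adjusted p 0.03). The male call was lost without Het_M_125 or Het_M_137 or any KO male (adjusted p 0.0677 to 0.0897). Over both sexes Rhbg was called in all 26 alternatives, as were Oat and Cyp2e1.

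Glul and Rhbg, which handle ammonium in the same hepatocytes, thus moved in opposite directions, and KO_F_108 was the lowest KO liver for both.

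Cyp2e1 (ENSMUSG00000025479.10, chr7:140343652-140355167, plus strand) encodes the P450 that oxidises ethanol and paracetamol. It was at 6805, 3877 and 5958 CPM in Het females and 5396, 6127 and 4834 CPM in Het males. KO females were at 2463, 3539 and 2993 CPM and KO males at 4158, 2936 and 3366 CPM. KO_M_118 lay above Het_F_115 and the other 5 KO livers lay below all Het livers, while in TPM the highest KO liver (1827) was just under the lowest Het liver (1829). Cyp2e1 was lower by 1.70-fold over both sexes (log2 fold change -0.77 ± 0.17, adjusted p 0.00745). In females the change was -0.89 ± 0.23 (adjusted p 0.034) and in males -0.65 ± 0.23 (adjusted p 0.118 by edgeR and 0.0499 by DESeq2). The female call was lost without Het_F_111 or Het_F_126 or KO_F_108 or KO_F_123 (adjusted p 0.0512 to 0.102), without robust estimation (0.0532) and in the fit to females alone (0.116).

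Cyp1a2 (ENSMUSG00000032310.5, chr9:57584196-57590986, minus strand) encodes the P450 that clears caffeine and is a target of the aryl hydrocarbon receptor. It was at 348, 292 and 558 CPM in Het females and 704, 382 and 488 CPM in Het males. KO females were at 22.4, 124.5 and 199 CPM and KO males at 233.5, 229 and 207 CPM. All KO livers lay below all Het livers, and KO_F_108 stood far below the other 5 KO livers. The fall over both sexes was 2.86-fold (log2 fold change -1.51 ± 0.42, adjusted p 0.0271), and without KO_F_108 it was -1.28 with an adjusted p of 0.00323. Single sexes did not pass the edgeR test (females -1.79 ± 0.60, adjusted p 0.0786, and males -1.23 ± 0.59, adjusted p 0.232). That test shares its spread over all 4 groups, KO_F_108 included. Females were called by DESeq2 (adjusted p 0.00838), by limma (0.0373 and 0.045) and by edgeR without KO_F_108 (0.0486) or KO_F_123 (0.0324), and males by edgeR without KO_F_108 (0.0219) and in the fit to the 6 males (0.0122). The call over both sexes was lost with no filter on low counts (adjusted p 0.0745) and without Het_F_126, Het_M_119, KO_F_112 or any KO male (0.0513 to 0.0584).

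**Figure D3:**
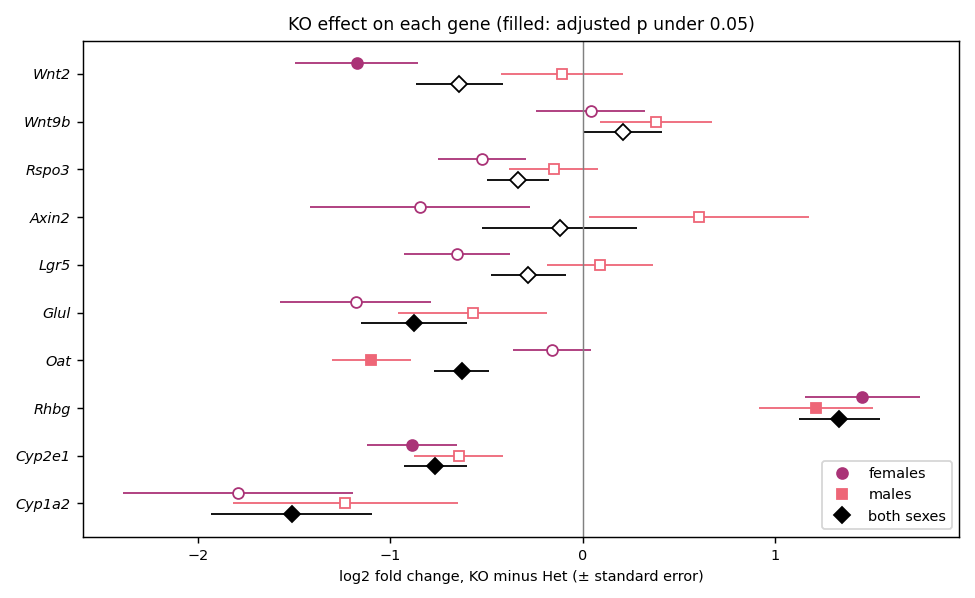
Log2 fold change, KO minus Het (horizontal axis), of the 10 genes in females, males and both sexes; bars are standard errors and filled symbols have an adjusted p under 0.05. Rhbg lies to the right of 0 in both sexes, Glul, Cyp2e1 and Cyp1a2 lie to the left, and Oat and Wnt2 each have a called value in 1 sex and a value near 0 in the other.

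The promoters of the 4 genes that fell are shown to let their sequences be compared. Each runs from 250 bases before to 50 bases after a RefSeq start site (RefSeq table of build GRCm38.p6). Each matched once, without mismatch, on its chromosome of GRCm39, at chr7:140343482-140343781 (plus strand, Cyp2e1), chr9:57590889-57591188 (minus strand, Cyp1a2), chr1:153775425-153775724 (plus strand, Glul) and chr7:132178078-132178377 (minus strand, Oat). The Oat window lies wholly inside the annotated gene, and those of the others cross its edge. Capitals mark TCF/LEF-type motifs (CTTTGAT or CTTTGAA, either strand) and TATAAA on the gene's strand, which do not overlap each other.
Cyp2e1: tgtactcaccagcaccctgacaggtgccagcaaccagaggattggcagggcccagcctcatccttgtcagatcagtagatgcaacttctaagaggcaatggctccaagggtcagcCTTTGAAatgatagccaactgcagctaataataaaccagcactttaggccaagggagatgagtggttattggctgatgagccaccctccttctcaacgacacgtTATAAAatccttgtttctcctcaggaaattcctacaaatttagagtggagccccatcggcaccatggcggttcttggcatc
Cyp1a2: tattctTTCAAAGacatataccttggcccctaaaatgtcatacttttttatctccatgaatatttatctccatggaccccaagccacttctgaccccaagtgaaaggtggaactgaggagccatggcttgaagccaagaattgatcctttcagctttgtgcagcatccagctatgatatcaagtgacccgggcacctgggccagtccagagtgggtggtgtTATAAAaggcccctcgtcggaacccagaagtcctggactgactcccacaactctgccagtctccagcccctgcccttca
Glul: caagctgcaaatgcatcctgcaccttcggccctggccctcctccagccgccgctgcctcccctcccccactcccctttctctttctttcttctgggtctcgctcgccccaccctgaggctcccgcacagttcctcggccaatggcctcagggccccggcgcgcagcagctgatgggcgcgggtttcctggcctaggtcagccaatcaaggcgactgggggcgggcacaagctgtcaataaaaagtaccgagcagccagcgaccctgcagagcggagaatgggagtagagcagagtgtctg
Oat: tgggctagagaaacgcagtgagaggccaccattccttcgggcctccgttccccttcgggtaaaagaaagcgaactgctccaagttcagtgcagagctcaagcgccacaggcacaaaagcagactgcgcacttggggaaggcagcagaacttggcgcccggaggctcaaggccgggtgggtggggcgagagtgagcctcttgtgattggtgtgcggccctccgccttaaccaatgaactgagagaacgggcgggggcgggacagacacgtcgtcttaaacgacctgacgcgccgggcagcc

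A promoter was found for 7 of the 10 genes, the exceptions being Rspo3, Lgr5 and Rhbg. Cyp2e1 holds CTTTGAA beginning 135 bases before the start, and Cyp1a2 holds it on the opposite strand, read as TTCAAAG, beginning 244 bases before the start. That made 2 of 7, beside 8.65% of 32851 promoters in the table. TATAAA lies 31 bases before the start in Cyp2e1 and 29 bases before it in Cyp1a2, and 8.32% of all promoters hold it. The core of the aryl hydrocarbon receptor site (GCGTG, either strand) was in none of the 7 windows and in 32.4% of all. Glul, Oat, Wnt2, Wnt9b and Axin2 had none of the 3 motifs in these windows. The Wnt2 window, like that of Oat, lies wholly inside the annotated gene.

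The sexes were compared directly by the interaction, which subtracts the female KO effect from the male one. In females 3 of the 10 genes were called (Wnt2, Rhbg and Cyp2e1), beside 11.0% of all genes (5.94% higher and 5.10% lower). In males 2 were called (Oat and Rhbg), beside 7.45% of all genes (4.47% higher and 2.98% lower). The median log2 fold change of the 10 was -0.75 in females and -0.13 in males, beside 0.005 and 0.02 for all genes. Het and KO females did not overlap for 6 of the 10 genes, 1 higher and 5 lower in KO, beside 30.4% of all genes (15.8% higher and 14.7% lower). Males did not overlap for 5, 1 higher and 4 lower, beside 32.1% of all genes (16.8% higher and 15.4% lower). For the interaction edgeR called 0 of the 10 genes (0.0465% of all genes), as did DESeq2, and 2 had an unadjusted p under 0.05, beside 9.28% of all genes. These were Oat, with a difference of -0.94 ± 0.29 (adjusted p 0.421), and Wnt2, with 1.07 ± 0.45 (adjusted p 0.505). A sex difference in the KO effect was therefore not shown for any of the 10.

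Between males and females as such, over both genotypes, edgeR and DESeq2 called 0 of the 10 genes, beside 1.02% of all genes in edgeR. Oat alone had an unadjusted p under 0.05 (13.8% of all genes), with males lower by 1.36-fold (log2 difference -0.45 ± 0.14, adjusted p 0.191).

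The rest of the Wnt pathway was read from 4 further lists, chosen with earlier results of these data known. Of 22 Wnt ligands, R-spondins and secretion genes other than the 3 above, 10 were tested and 12 had too few reads. Wnt4 fell (-0.93 ± 0.19, adjusted p 0.00548) with no overlap, from 0.976 to 1.73 CPM in Het to 0.609 to 0.804 CPM in KO livers. Wnt5b, a ligand of the beta-catenin-independent branch, rose (1.27 ± 0.27, adjusted p 0.00674) from 1.25 to 2.65 CPM to 3.12 to 9.997 CPM, also with no overlap. Wls, which carries Wnt proteins to the cell surface, fell (-0.55 ± 0.16, adjusted p 0.0262), a call that ended without any 1 of 4 mice. The median of the 10 was -0.16.

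Among 14 tested receptors, 3 were lower and 1 was higher (median -0.02). The Frizzled gene Fzd7 fell by 1.35 ± 0.23 on the log2 scale (adjusted p 0.00247), the co-receptor gene Lrp5 rose by 0.51 ± 0.13 (adjusted p 0.0163), and Ror1 was at -0.75 ± 0.21 (adjusted p 0.0263, lost without any 1 of 6 mice). Secreted antagonists had 2 lower and 2 higher calls among 7 tested genes (median 0.37). Of these Sfrp1 was at -1.69 ± 0.38 (adjusted p 0.00924, on 1 to 36 counts per liver) and Frzb at 0.98 ± 0.25 (adjusted p 0.0162). Sfrp5 was called as lower (adjusted p 0.0161) on 2 to 6 counts in each Het and 0 to 2 counts in each KO liver, too few for a fold.

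Of 20 intracellular transducers, all tested, 2 were lower and 1 was higher (median -0.03). Ctnnb1, the gene for beta-catenin itself, was at 193 to 209 CPM in Het and 150 to 176 CPM in KO livers, free of overlap, and fell by a small amount (-0.32 ± 0.08, adjusted p 0.0111). Tcf7l2, the main TCF factor of the liver, fell (-0.46 ± 0.12, adjusted p 0.0185). Tcf7 rose (0.43 ± 0.13, adjusted p 0.0363), a call that was lost in 10 of the 12 fits without 1 mouse.

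Other pericentral hepatocyte genes did not share 1 direction. Of 28, 7 rose and 3 fell (median -0.12). The bile acid and drug uptake transporter gene Slco1b2 went from 900 to 1218 CPM in Het to 312 to 587 CPM in KO livers (-1.08 ± 0.14, adjusted p 0.000385). The dicarboxylate transporter gene Slc13a3 (1.28 ± 0.19, adjusted p 0.0012) and the glutathione transferase gene Gstm2 (0.82 ± 0.15, adjusted p 0.00312) rose. DESeq2 called 6 of the 28 as lower, and without KO_F_123 edgeR called 8. The number called as higher was 5 to 6 when 1 mouse was left out. Among females edgeR called 2 as higher and 5 as lower, and among males 4 as higher and 1 as lower. Of 20 periportal genes, 4 rose and 1 fell (median 0.17), namely the steroid enzyme gene Hsd17b6 (-2.84 ± 0.48, adjusted p 0.00343). The urea cycle gene Arg1 (0.60 ± 0.17, adjusted p 0.0227) and the apolipoprotein gene Apoa4 (1.37 ± 0.38, adjusted p 0.0279) rose. The number of periportal genes called as higher ran from 0 to 5 as single mice were left out.

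Enzymes that share substrates with Glul and Oat were read as a list of 14, of which 13 were tested. The ornithine user Otc, a urea cycle enzyme gene, fell (-0.94 ± 0.22, adjusted p 0.012), as did the proline synthesis gene Pycrl (-0.70 ± 0.16, adjusted p 0.0107) and the proline breakdown gene Aldh4a1 (-0.30 ± 0.10, adjusted p 0.0425, lost without any 1 of 8 mice). The other 10 tested were not called, and the median was -0.07.

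Of 6 genes listed for the aryl hydrocarbon receptor, which are not all targets of it, 3 rose (median 0.43). Cyp1a2, a target outside that list, fell. Nqo1, a quinone reductase gene, went from 4.57 to 11.6 CPM in Het to 25.7 to 40.9 CPM in KO livers (2.21 ± 0.12, adjusted p 7.1e-07). Tiparp, a feedback gene of the receptor, rose (1.46 ± 0.31, adjusted p 0.00827), and Arnt, its partner, had a rise of 0.32 ± 0.11 (adjusted p 0.0494) that was lost in 10 of the 12 fits without 1 mouse. Cyp1a1, the classical target, was at 0.612 to 1.14 CPM in Het and 0.616 to 1.47 CPM in KO livers and was not called (0.04 ± 0.23, adjusted p 0.93). Cyp1a1 is named in addition to the 3 genes of smallest p, after its values were seen.

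Of 8 hepatocyte transcription factors, 2 fell (median -0.41). Cebpa, a regulator of hepatocyte metabolism, fell (-1.104 ± 0.149, adjusted p 0.000586), and so did Foxa1 (-1.01 ± 0.22, adjusted p 0.00866). Nr5a2 was at -0.38 ± 0.13 (adjusted p 0.0521).

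**Figure D4:**
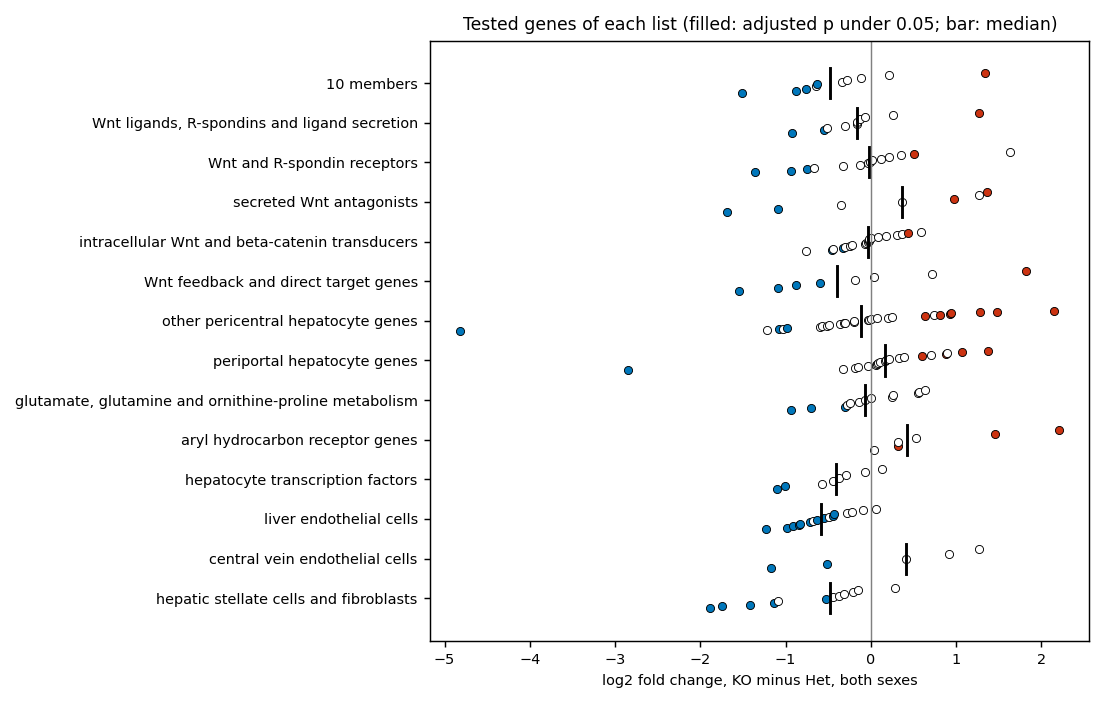
Log2 fold change, KO minus Het over both sexes (horizontal axis), of each tested gene in the lists named at the left; filled points have an adjusted p under 0.05 (blue lower, red higher) and black bars are list medians. Endothelial and stellate markers lie mostly to the left of 0, whereas other pericentral genes are called on both sides.

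Markers of the remaining cell types were read as well. Of 10 macrophage markers, 4 rose (median 0.57), and the 10 summed to 48.6 to 156 TPM in Het and 76.7 to 248 TPM in KO livers. Log2 fold changes were above 0 for 8 of the 10 over both sexes, 10 in males and 7 in females. In males edgeR called 2 as higher and in females 0. Among 10 lymphocyte and neutrophil markers 1 rose and 1 fell (median -0.39), with sums of 1.31 to 7.42 and 3.60 to 6.42 TPM. Up to 3 of them were at 0 in a KO female. The 6 cholangiocyte markers gave 0 calls by edgeR and by DESeq2, and 0 at an unadjusted p under 0.05. Of 8 hepatocyte markers 2 rose and 2 fell (median -0.01), and they summed to 24440 to 39710 TPM in Het and 35310 to 55400 TPM in KO livers. The part of these cell types in the values of the 10 genes was not tested.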

How the data were processed

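The authors sequenced total liver RNA depleted of ribosomal RNA (a stranded kit), aligned the reads with STAR 2.7.9a to GRCm39 and estimated counts with Salmon 1.10.1. The authors deposited estimated counts per gene, 2 rescaled versions of them, and TPM. Of the estimated counts 12.0% were not whole, and they were rounded for every main test here. TPM, deposited by the authors, keep no depth and served for levels, marker sums and limma.

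Only genes reaching 5 reads in 3 or more livers, once libraries were brought to their median size, were tested (19350 of 57180). After TMM scaling, edgeR 4.0.16 in R 4.3.3 fitted a mean for each of the 4 groups of 3 mice. Tests were quasi-likelihood F tests, run robustly and with the prior count set to 2, following the study's methods. Fewer genes were tested here, and more were called for genotype and for sex, than the study reported. The cause of that difference was not tested. Contrasts were KO minus Het over both sexes and within each, their difference, and male minus female. Benjamini-Hochberg adjusted p under 0.05 over all tested genes were called, and standard errors come from the F statistic. The mice are separate animals, and p-values measure the spread between them. In the main fit that spread is shared over the 4 groups, so a test within a single sex also depends on mice of the other sex. Within a group, log2 CPM of 2 livers correlated at 0.964 to 0.980. Scripts were tested on simulated data.

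The 10 genes and the other lists were chosen with earlier results of these data known. The text names all 10 genes, Xpa and Ercc8, the 3 genes of smallest p of each pathway list and the 2 of smallest p of the endothelial and stellate lists; Kit, Cdh13 and Vwf are the 3 central vein markers of smallest p, added after their values were seen. Gene coordinates come from a later GENCODE annotation of GRCm39 than the one used for counting. The versions of the gene identifiers are those of the counted annotation. The alternatives were DESeq2 1.42.0, limma 3.58.1 on log2(TPM + 1) and log2(TPM + 0.1), the other count tables, filters and scalings, an additive model, fits to 1 sex and leaving out each mouse.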

Additional observations from a re-analysis of the deposited data

Results flagged for a closer look

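Cyp1a2 in KO_F_108 stood apart from the other 5 KO livers. At 22.4 CPM it lay below the next lowest, KO_F_112 at 124.5 CPM, and the gap was 0.732 of the range of the 6 KO livers when the scale was log2. Dixon's limit for 6 samples is 0.625, and 20 groups (each of the 10 genes in Het and in KO livers) were looked at, of which chance alone would pick about 1. This liver was also the lowest of the KO livers for Cyp2e1 (2463 CPM), Glul (187.5 CPM) and Rhbg (12.3 CPM), and the highest for Wnt9b (1.92 CPM). Over all tested genes it lay farthest along the main axis of variation (first principal component 94.1, other KO livers 23.5 to 69.7). Without it the fold changes over both sexes were -1.28 for Cyp1a2, -0.72 for Cyp2e1, -0.69 for Glul and 1.46 for Rhbg, all of them called.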

How the results depend on the processing

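Over both sexes 5 of the 10 genes were called, 6 by DESeq2, 3 with no filter on low counts and 3 to 5 when 1 mouse was left out. In females 3 were called, 5 by DESeq2, 5 by limma on log2(TPM + 1), 5 by limma on log2(TPM + 0.1), 1 in a fit to the 6 females alone and 1 to 3 without 1 mouse. In males 2 were called, 3 by DESeq2, 2 by each limma fit, 3 in a fit to the 6 males alone and 1 to 3 without 1 mouse. Of all genes 4330 were called, and 3194 to 5045 under the alternatives. Rhbg, Oat and Cyp2e1 were called over both sexes in all 26 alternatives. Glul and Cyp1a2 kept their direction in all of these and lost the call in 10 and 7. Directions turned for values near 0. Axin2 over both sexes was 0.00 and 0.04 in the limma fits and -0.33 to 0.18 without 1 mouse. Wnt9b in females was -0.03 by library size alone, 0.00 and -0.03 in the limma fits and -0.23 to 0.19 without 1 mouse. Without 1 mouse, male values ran from -0.41 to 0.11 for Wnt2, -0.31 to 0.02 for Rspo3 and -0.05 to 0.34 for Lgr5. The Rhbg interaction was 0.02 and 0.06 in the limma fits and -0.51 to 0.02 without 1 mouse. For males against females Axin2 was 0.04 with either rescaled count table, 0.01 by upper quartile scaling and -0.29 to 0.29 without 1 mouse. The same comparison ran from -0.23 to 0.03 for Wnt2, -0.23 to 0.01 for Wnt9b, -0.22 to 0.06 for Lgr5, -0.19 to 0.07 for Rhbg and -0.02 to 0.17 for Cyp2e1. The cause of these shifts was not tested. Counts of the other lists were recomputed under the same alternatives, a choice made after seeing the data. No paired analysis was possible because the labels name no litters and mouse numbers are not shared between groups. Wnt9b, with 25 to 63 counts per liver, was the least deeply counted of the 10 genes.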

Other observations

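Some pericentral genes outside the 10 had larger fold changes over both sexes, up or down, than any of the 10. Car3 and Gstm3 are named here after their values were seen. Car3, the gene for carbonic anhydrase 3, was at 1010 to 3175 CPM in Het and at 0.868 to 245 CPM in KO livers, with no overlap (log2 fold change -4.81 ± 0.83, adjusted p 0.00374 by edgeR). Gstm3, a glutathione transferase gene, went the other way, from 15.6 to 38.7 CPM in Het to 39.9 to 212 CPM in KO livers (2.15 ± 0.38, adjusted p 0.00374). Both are on the same list of 28 pericentral genes.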
